A study of Homo sapiens with 20 samples.

Results

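The dual-specificity MAP kinase phosphatases are encoded by 10 genes of the DUSP family, DUSP1, DUSP2, DUSP4, DUSP5, DUSP6, DUSP7, DUSP8, DUSP9, DUSP10 and DUSP16, and all 10 were found by symbol among the 57820 genes counted in T47D cells. The cells, T47D, are a long-used human cell line of luminal breast cancer that carries oestrogen and progesterone receptors, and the hormone was R5020, a synthetic progestin, at 10 nM. RNA-seq libraries came from cells with an siRNA against BRG1 (gene SMARCA4, an ATPase of SWI/SNF chromatin remodellers), CBX3 (the heterochromatin protein HP1 gamma) or FOXA1 (a pioneer transcription factor), and from cells with a control siRNA. They are called si-BRG1, si-CBX3, si-FOXA1 and si-control here. Each siRNA was sampled after 6 h of R5020 and at 0 h, before hormone, with 2 libraries in each of the 8 groups. All 6 h libraries had hormone and all 0 h libraries had none, so an effect of R5020 and one of the time itself cannot be told apart in any change called a hormone response below. Cells without siRNA gave 1 further RNA-seq library at 6 h and 1 at 0 h. BRG1 ChIP-seq gave 1 peak list after 30 min of hormone and 1 at 0 min. All groups share the one cell line, the hormone-depleted medium and the night without serum before treatment, as far as the labels describe them. The labels give no protocol for the first si-CBX3 library at 0 h and do not state how many siRNAs were used per target.

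MAP kinases (ERK, JNK and p38) are switched on by phosphorylation of a threonine and a tyrosine in their activation loop, and DUSP phosphatases switch them off by removing both phosphates. The members differ in place and in substrate: DUSP1, DUSP2, DUSP4 and DUSP5 are inducible nuclear enzymes, DUSP6, DUSP7 and DUSP9 are cytoplasmic and act mainly on ERK, and DUSP8, DUSP10 and DUSP16 act mainly on JNK and p38. Several are themselves transcribed in response to ERK, so that their messenger RNA is often read as an output of the pathway they restrain. DUSP1 is also a well-known target of glucocorticoid receptors, close relatives of the progesterone receptor.

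Library totals ran between 50017255 and 74374857 fragments, and all 10 members passed the filter on low counts among 18806 genes tested. DUSP9 did so at 4 to 29 fragments per library, and its values are imprecise. Each target was low under its own siRNA: SMARCA4 lay at 2.26 to 5.90 CPM (fragment counts scaled to library size, with TMM) in si-BRG1 libraries, against 61.7 CPM or more elsewhere, CBX3 at 3.07 to 6.80 CPM in si-CBX3 libraries, against 242 CPM or more, and FOXA1 at 44.4 to 62.8 CPM in si-FOXA1 libraries, against 158 CPM or more. The 9 luminal epithelial markers were present in every library and summed to 6863 to 13694 CPM, while 6 leukocyte markers summed to 0.591 to 1.75 CPM, 3 measured endothelial markers to 0.0342 to 1.07 CPM and 8 mesenchymal markers to 24.9 to 61.1 CPM. The 2 si-BRG1 libraries at 6 h differed from each other more than any other pair did, with a chi-square per degree of freedom of 57.2 across genes, against 4.23 to 28.1 in the other 7 groups. The file headers record counting with 1 processor thread for si-CBX3 and si-FOXA1 and with 8 for si-BRG1 and si-control. Whether a batch of libraries goes with this setting is not stated. Any difference in handling that goes with this setting cannot be told apart from the siRNA for levels of si-CBX3 or si-FOXA1 against si-control. Libraries at 6 h and 0 h of one siRNA share the setting. In these bulk libraries, fewer expressing cells and less RNA per cell cannot be told apart either. The labels list replicates as samples of their own without naming separate cultures, and the p-values therefore cover only the spread among these libraries, which may be technical.

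At 0 h in si-control cells, DUSP16 had the highest level per exon length of the gene and DUSP9 the lowest. On the FPKM scale, which is CPM per kilobase of exon, DUSP16, which acts on JNK, averaged 12.5 ± 0.317 FPKM (SD, n = 2, as for every level below). The next were DUSP5, which acts on ERK in the nucleus, at 7.68 ± 0.296 FPKM and DUSP1 at 5.82 ± 0.243 FPKM. DUSP8 followed at 3.28 ± 0.217 FPKM, ahead of DUSP4 at 2.45 ± 0.105 FPKM and DUSP10 at 2.38 ± 0.275 FPKM, whose libraries overlapped. DUSP2 stood at 1.50 ± 0.348 FPKM, DUSP7 at 1.01 ± 0.0330 FPKM, DUSP6 at 0.681 ± 0.0287 FPKM and DUSP9 at 0.10 ± 0.0023 FPKM; apart from DUSP4 and DUSP10, no neighbours in this order overlapped. Over the 8 groups the members varied unequally: the highest group mean was 19.96 times the lowest for DUSP6, 10.7 times for DUSP1 and 7.97 times for DUSP2, but 1.86 times for DUSP7 and 1.69 times for DUSP16. The plot of CPM in the 16 libraries shows the levels behind every comparison below.

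**Figure D1:**
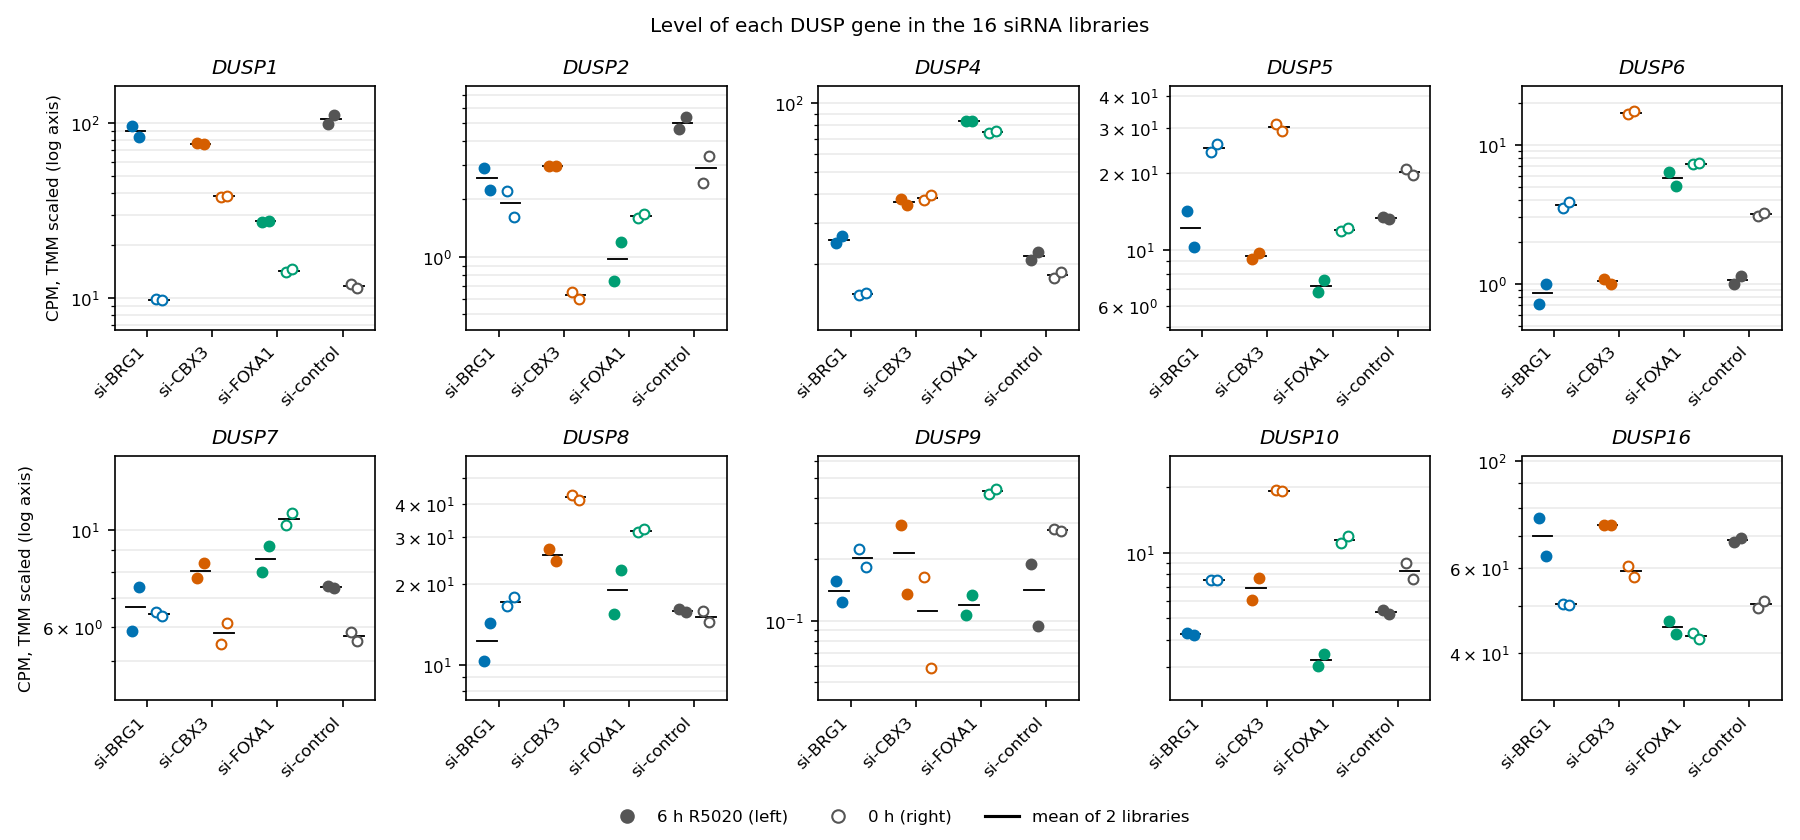
CPM (TMM scaled, log axis with its own range in each panel) of the 10 DUSP genes in the 16 siRNA libraries, with 6 h as filled points left of 0 h as open points and bars for the mean of 2 libraries. At 6 h DUSP1 was high in si-BRG1 and si-control and lowest in si-FOXA1, and DUSP6 was highest at 0 h in si-CBX3.

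After 6 h of R5020, DUSP1 was higher and DUSP5, DUSP6 and DUSP10 were lower than at 0 h in si-control cells. Of the 10 members, 8 passed edgeR's quasi-likelihood test at an adjusted p below 0.05 (37.6% of all genes tested did), 5 higher (19.5% of all genes) and 3 lower (18.1%). The median log2 change of the members was 0.18, against -0.02 over all genes. In the plot of hormone responses, DUSP1 is the farthest above 0 and DUSP6 the farthest below.

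Among the nuclear members, DUSP1, which acts on p38, JNK and ERK, had 99.1 and 111 CPM at 6 h in si-control, against 12.1 and 11.4 CPM at 0 h. Both 6 h libraries lay far above both 0 h libraries, a log2 change of 3.16 (SE 0.09, edgeR adjusted p = 7.42e-14). DUSP2, a phosphatase first known from activated lymphocytes, had 4.65 and 5.37 CPM at 6 h against 2.42 and 3.37 CPM at 0 h, a log2 change of 0.80 (SE 0.19, edgeR adjusted p = 0.00358). DUSP4, which acts on ERK and JNK, rose less, with 20.7 and 22.5 CPM at 6 h against 17.2 and 18.3 CPM at 0 h, or 0.28 on the log2 scale (SE 0.07, edgeR adjusted p = 0.00635). DUSP5 moved the other way: it had 13.4 and 13.2 CPM at 6 h against 20.6 and 19.5 CPM at 0 h, a log2 change of -0.59 (SE 0.11, edgeR adjusted p = 0.000574). The groups of all 4 nuclear genes were fully separated. The DUSP2 and DUSP4 calls each depended on single libraries: without the first si-control library at 0 h they stood at 0.55 (edgeR adjusted p = 0.0746) and 0.22 (0.0888), and without the second at 6 h at 0.67 (0.0501) and 0.21 (0.117).

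Among the ERK phosphatases of the cytoplasm, DUSP6, the classical ERK-induced feedback gene, had 1.00 and 1.14 CPM at 6 h in si-control, against 3.06 and 3.25 CPM at 0 h. This fall of 1.56 on the log2 scale (SE 0.17, edgeR adjusted p = 1.04e-06) took DUSP6 below every other member except DUSP9 in CPM. DUSP7 had 7.46 and 7.38 CPM at 6 h against 5.83 and 5.57 CPM at 0 h, a log2 change of 0.38 (SE 0.12, edgeR adjusted p = 0.0182), and lost its call when any one of the 4 si-control libraries was left out (0.34 to 0.39, edgeR adjusted p = 0.0661 to 0.0978). DUSP9, an X-linked gene best known from placenta, had 0.189 and 0.0948 CPM at 6 h against 0.282 and 0.273 CPM at 0 h and did not pass (-0.96, SE 0.49, edgeR adjusted p = 0.138).

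Among the JNK and p38 phosphatases, DUSP10 had 5.44 and 5.21 CPM at 6 h in si-control, against 8.94 and 7.59 CPM at 0 h, a log2 change of -0.63 (SE 0.12, edgeR adjusted p = 0.000386). DUSP16 went the opposite way, with 68.1 and 69.2 CPM at 6 h against 49.6 and 51.4 CPM at 0 h, or 0.44 (SE 0.08, edgeR adjusted p = 0.000257). DUSP8 had 16.2 and 15.7 CPM at 6 h against 15.8 and 14.4 CPM at 0 h; its groups overlapped and its log2 change was 0.08 (95% interval -0.24 to 0.39).

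**Figure D2:**
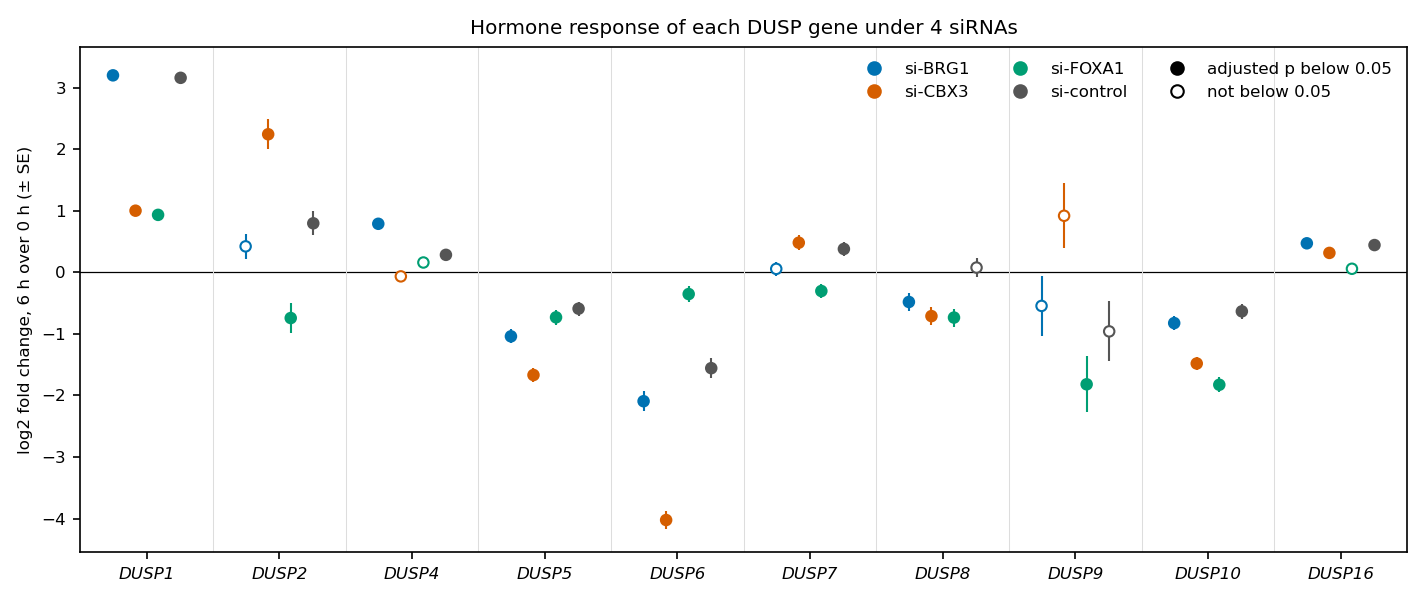
Log2 fold change of 6 h over 0 h of R5020 for each DUSP gene under si-BRG1, si-CBX3, si-FOXA1 and si-control (n = 2 libraries per group). Bars are the standard error derived from edgeR's F statistic, and filled points passed at an adjusted p below 0.05. DUSP1 stands at 3.20 in si-BRG1 and 3.16 in si-control but at 1.00 in si-CBX3 and 0.93 in si-FOXA1, and DUSP6 falls to -4.02 in si-CBX3.

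Without siRNA, where a single library per time allows no test, T47D cells showed the same direction as si-control for 8 of the 9 members listed there; DUSP9 was not analysed there. DUSP1 had 13.5 RPKM at 6 h against 3.65 RPKM at 0 h, and DUSP5 had 0.780 RPKM at 6 h against 3.85 RPKM at 0 h. On the scale of log2(RPKM + 1) these were differences of 1.64 and -1.45, the only members past a 2-fold change in either direction, 1 higher (5.87% of 17398 genes) and 1 lower (1.91% of them), so 2 of 9 against 7.78% of genes in both directions. DUSP6 had 0.0273 RPKM at 6 h against 0.525 RPKM at 0 h, DUSP10 had 0.519 against 1.48 RPKM, and DUSP16 had 5.28 against 2.75 RPKM. The added 1 compresses such low values, so DUSP6 was at -0.57 and DUSP10 at -0.71 on that scale. DUSP2 had 0.918 RPKM at 6 h and 0.222 RPKM at 0 h, DUSP4 had 3.36 and 2.77 RPKM, and DUSP7 had 1.22 and 0.802 RPKM. The exception was DUSP8, with 0.940 RPKM at 6 h against 1.98 RPKM at 0 h. Its estimated reads were also split differently over transcripts: the transcript ENST00000397374.3 held 100% of the DUSP8 RPKM at 6 h and 11.2% at 0 h, when ENST00000331588.4 held 53.2%. The order of levels at 0 h also differed from that in si-control: DUSP16 lay below DUSP5, DUSP1 and DUSP4 in RPKM, which was summed over transcripts here.

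Before hormone, 7 members were higher and 2 lower in si-CBX3 than in si-control, 6 were higher and 3 lower in si-FOXA1, and 1 was higher and 3 lower in si-BRG1, by small amounts. The share called was 9 of 10 in si-CBX3 (54.1% of all genes; higher 28.1%, lower 26.0%), 9 of 10 in si-FOXA1 (73.5% of all genes; higher 40.0%, lower 33.5%) and 4 of 10 in si-BRG1 (28.5% of all genes; higher 15.1%, lower 13.4%). The median log2 difference of the members was 0.85 in si-CBX3, against 0.05 over all genes, 0.55 in si-FOXA1, against 0.11, and -0.07 in si-BRG1, against 0.03. These 3 comparisons share the si-control libraries. The plot of knockdown effects gives the values at both times.

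DUSP6 differed most in si-CBX3 at 0 h. It had 16.6 and 17.4 CPM there, against 3.06 and 3.25 CPM in si-control, a log2 difference of 2.43 (SE 0.13, edgeR adjusted p = 2.86e-10). DUSP1 had 37.9 and 38.4 CPM in si-CBX3 against 12.1 and 11.4 CPM in si-control (1.70, SE 0.08, edgeR adjusted p = 1.54e-10). DUSP8, a JNK phosphatase, had 42.9 and 41.3 CPM in si-CBX3 against 15.8 and 14.4 CPM in si-control (1.48, SE 0.15, edgeR adjusted p = 3.32e-07). In each of these genes both si-CBX3 libraries lay above both si-control libraries. DUSP10 had 19.3 and 19.1 CPM in si-CBX3 against 8.94 and 7.59 CPM in si-control (1.22, SE 0.11), DUSP4 had 37.8 and 39.7 CPM against 17.2 and 18.3 CPM (1.12, SE 0.07), and DUSP5 had 31.1 and 29.1 CPM against 20.6 and 19.5 CPM (0.58, SE 0.11). Apart from DUSP9, the exception was DUSP2, with 0.653 and 0.604 CPM in si-CBX3 against 2.42 and 3.37 CPM in si-control. Its log2 difference was -2.19 (SE 0.24, edgeR adjusted p = 9.60e-07), from only 44 and 41 fragments in the si-CBX3 libraries. DUSP7 was at 0.02 (95% interval -0.23 to 0.27). The smallest calls were fragile: DUSP16, at 0.23, lost its call without the first si-CBX3 library (0.19) or without the first (0.15) or the second (0.23) si-control library. DUSP9, at -1.31, lost it without the second si-CBX3 library (-0.76), the first si-control library (-1.33) or the second (-1.36), and stood at -2.20 without the first si-CBX3 library.

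In si-FOXA1 at 0 h the largest difference was that of DUSP4, with 74.4 and 75.6 CPM against 17.2 and 18.3 CPM in si-control (2.08, SE 0.07, edgeR adjusted p = 4.76e-13). DUSP6 had 7.24 and 7.41 CPM in si-FOXA1 against 3.06 and 3.25 CPM in si-control (1.22, SE 0.13), DUSP8 had 31.3 and 32.2 CPM against 15.8 and 14.4 CPM (1.07, SE 0.15), and DUSP7 had 10.3 and 11.0 CPM against 5.83 and 5.57 CPM (0.90, SE 0.12). Smaller rises were those of DUSP10 (0.47, SE 0.11) and DUSP1 (0.29, SE 0.09), and the DUSP1 call was lost without the second si-control library (0.20, edgeR adjusted p = 0.0932). DUSP2 and DUSP5 fell: DUSP2 had 1.60 and 1.67 CPM in si-FOXA1 against 2.42 and 3.37 CPM in si-control (-0.82, SE 0.21), and DUSP5 had 11.9 and 12.1 CPM against 20.6 and 19.5 CPM (-0.74, SE 0.11). DUSP16 was also lower (-0.22, SE 0.08), a call lost without the first (-0.24, edgeR adjusted p = 0.0524) or the second (-0.19, 0.113) si-FOXA1 library. DUSP9 did not pass (0.62, SE 0.39).

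In si-BRG1 at 0 h, DUSP1 (-0.27, SE 0.09), DUSP2 (-0.60, SE 0.21) and DUSP4 (-0.27, SE 0.08) were lower than in si-control, and DUSP5 was higher (0.32, SE 0.11). Each of these 4 calls was lost when 1 of at least 2 libraries was left out. DUSP5 was not called without any one of the 4 libraries (0.27 to 0.37, edgeR adjusted p = 0.0829 to 0.219). DUSP1 was not called without the first or second si-BRG1 library (-0.28 and -0.25) or the first si-control library (-0.25), DUSP4 not without the first or second si-BRG1 library (-0.26 and -0.28) or the second si-control library (-0.23), and DUSP2 not without the second si-BRG1 library (-0.39) or the second si-control library (-0.35).

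**Figure D3:**
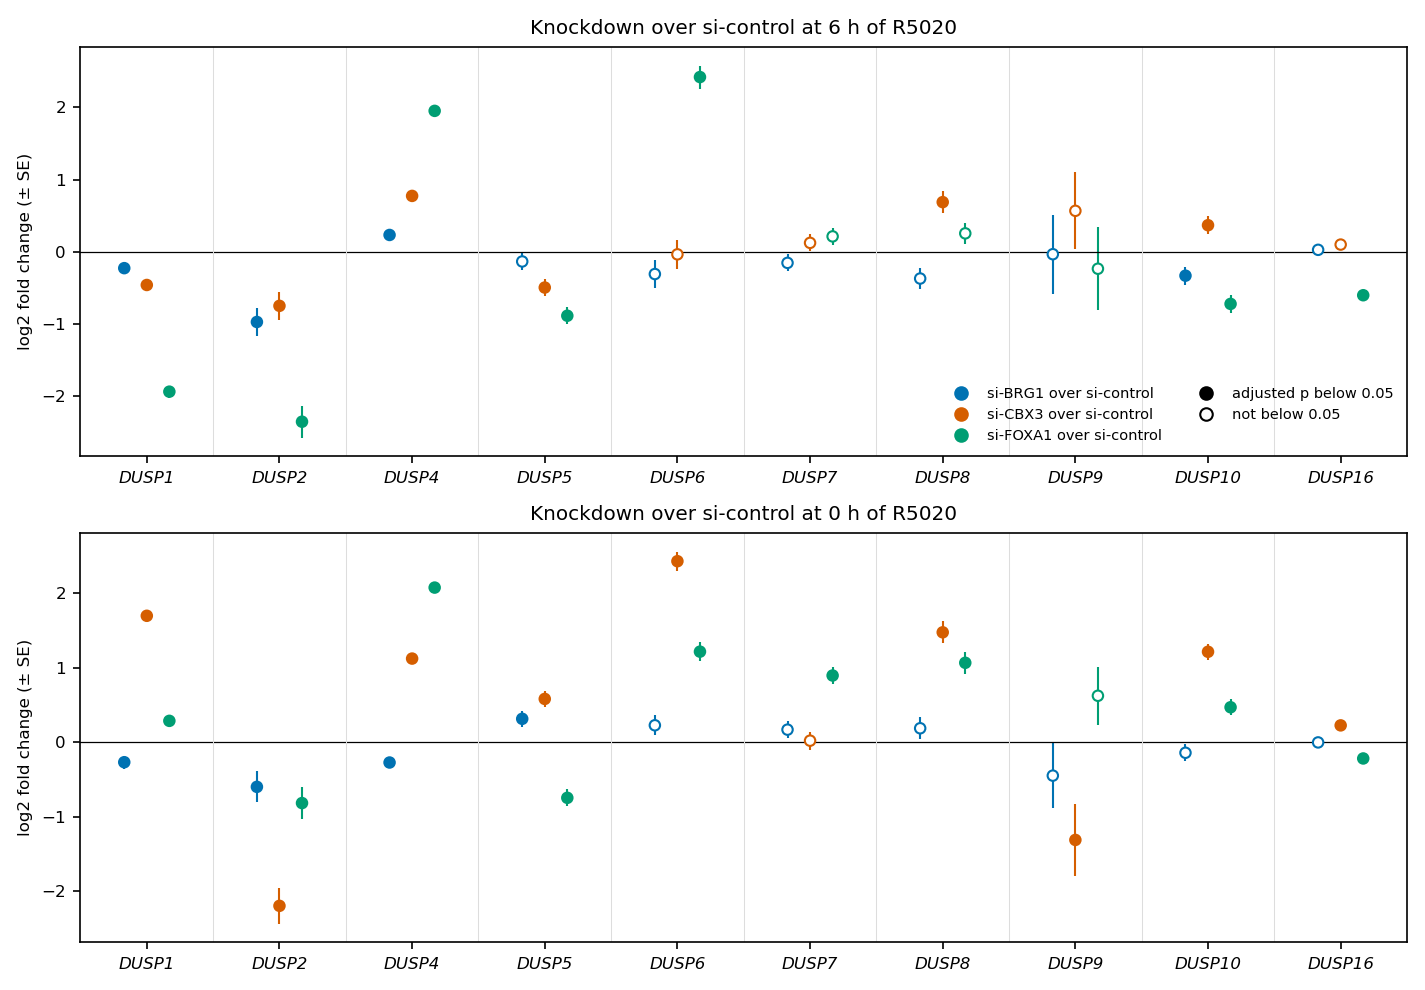
Log2 fold change of each knockdown over si-control for the 10 DUSP genes at 6 h (upper panel) and 0 h (lower panel) of R5020 (n = 2 libraries per group). Bars are the standard error derived from edgeR's F statistic, and filled points passed at an adjusted p below 0.05. DUSP6 stands at -0.04 in si-CBX3 at 6 h but at 2.43 there at 0 h, and in si-FOXA1 DUSP1 stands at -1.94 at 6 h but at 0.29 at 0 h.

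After 6 h of hormone in si-CBX3, 6 of 10 members passed against si-control (49.2% of all genes), 3 higher (24.7%) and 3 lower (24.4%). The share called was near that of all genes, and the median was 0.11 for the members and 0.02 for all genes. DUSP6, which had been the most raised at 0 h, had 1.09 and 1.00 CPM in si-CBX3 at 6 h against 1.00 and 1.14 CPM in si-control at 6 h, overlapping groups with a log2 difference of -0.04 (95% interval -0.46 to 0.39). DUSP1 had 76.6 and 76.0 CPM in si-CBX3 against 99.1 and 111 CPM in si-control (-0.46, SE 0.08, edgeR adjusted p = 0.000118), below the si-control level although it lay above it at 0 h. DUSP5 was likewise lower at 6 h, with 9.18 and 9.73 CPM in si-CBX3 against 13.4 and 13.2 CPM in si-control (-0.49, SE 0.12). DUSP2 was still lower (-0.75, SE 0.20), and DUSP4 (0.77, SE 0.07) and DUSP8 (0.69, SE 0.15) were still higher. DUSP10 was higher by 0.37 (SE 0.12), which was not called without the second si-CBX3 library (0.19) or the second si-control library (0.34).

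In si-FOXA1 at 6 h, 7 of 10 members passed (74.6% of all genes), 2 higher (40.1%) and 5 lower (34.5%), and each of these 7 calls held whichever library was left out. The share called was near that of all genes, and the median was -0.42 for the members and 0.12 for all genes. DUSP1 had 27.3 and 27.5 CPM in si-FOXA1, against 99.1 and 111 CPM in si-control (-1.94, SE 0.08, edgeR adjusted p = 3.50e-12). DUSP2 had 0.749 and 1.20 CPM against 4.65 and 5.37 CPM in si-control (-2.35, SE 0.22, edgeR adjusted p = 5.32e-08). DUSP5 (-0.89, SE 0.12), DUSP10 (-0.72, SE 0.13) and DUSP16 (-0.60, SE 0.08) were also lower. DUSP6 had 6.40 and 5.09 CPM in si-FOXA1 against 1.00 and 1.14 CPM in si-control (2.42, SE 0.16, edgeR adjusted p = 6.03e-10), and DUSP4 had 83.7 and 83.8 CPM against 20.7 and 22.5 CPM (1.95, SE 0.07).

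In si-BRG1 at 6 h, 4 of 10 members passed (37.3% of all genes), 1 higher (19.6%) and 3 lower (17.8%), a share near that of all genes. DUSP2 had 2.90 and 2.23 CPM in si-BRG1 against 4.65 and 5.37 CPM in si-control (-0.97, SE 0.20, edgeR adjusted p = 0.000950), the one call here that held whichever library was left out. DUSP1 (-0.23, SE 0.08) was not called without the second si-BRG1 library (-0.12) or the second si-control library (-0.14). DUSP4 (0.23, SE 0.07) was not called without the second si-BRG1 library (0.19) or the first si-control library (0.19), and DUSP10 (-0.33, SE 0.12) without any one of the 4 (-0.35 to -0.29). DUSP8 did not pass (-0.37, edgeR adjusted p = 0.0651) but was called by DESeq2 (-0.41, adjusted p = 0.0255), with DESeq2's size factors in edgeR (-0.41, 0.0422), without the filter on low counts (-0.37, 0.00508) and without the second si-BRG1 library (-0.63, 0.00652). DUSP5 passed without the first si-BRG1 library, at -0.38.

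The hormone response itself differed from that of si-control for 7 members in si-CBX3, 7 in si-FOXA1 and 1 in si-BRG1, by the interaction term of the fit. The shares called among all genes were 8.99% in si-CBX3, 28.7% in si-FOXA1 and 5.22% in si-BRG1. In si-CBX3, 1 difference was above 0 (4.63% of all genes) and 6 below (4.36%), in si-FOXA1 1 was above (13.0%) and 6 below (15.7%), and in si-BRG1 the single called difference was above 0 (1.49%; 3.72% of all genes below). DESeq2 also called that 1 member in si-BRG1. In edgeR the other 9 did not pass there. Among them were DUSP5 (-0.45, edgeR adjusted p = 0.12), DUSP6 (-0.54, 0.212) and DUSP8 (-0.56, 0.14). The medians of the 10 members were -0.57 in si-CBX3, -0.75 in si-FOXA1 and -0.26 in si-BRG1, against -0.01, -0.01 and 0.04 over all genes. The 3 comparisons share the si-control response. The plot of response differences gives each with its interval.

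**Figure D4:**
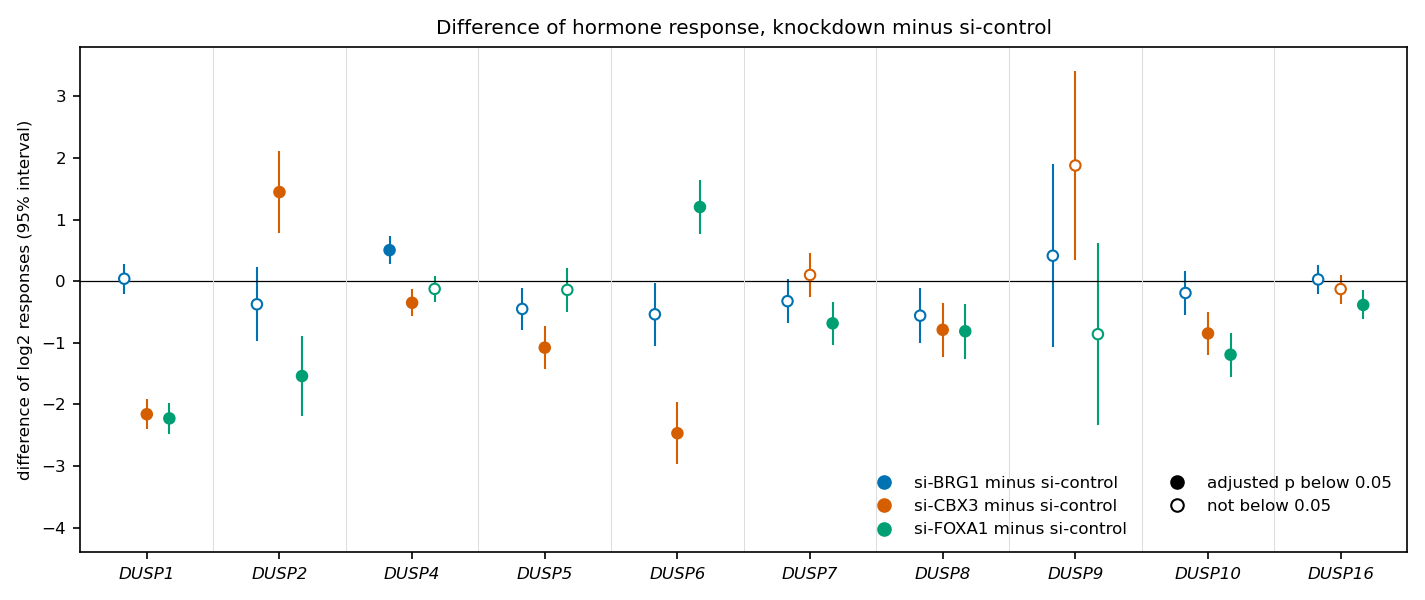
Difference of the log2 hormone response (6 h over 0 h), knockdown minus si-control, for each DUSP gene (n = 2 libraries per group). Bars are 95% intervals derived from edgeR's F statistic, and filled points passed at an adjusted p below 0.05. DUSP1 lies at -2.16 in si-CBX3 and -2.23 in si-FOXA1 but at 0.04 in si-BRG1, and DUSP6 lies at -2.47 in si-CBX3 and 1.20 in si-FOXA1.

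The DUSP1 response was smaller in si-CBX3 and si-FOXA1 than in si-control, at different levels. In si-CBX3 it had 76.6 and 76.0 CPM at 6 h against 37.9 and 38.4 CPM at 0 h, a log2 change of 1.00 (SE 0.08), and in si-FOXA1 27.3 and 27.5 CPM at 6 h against 14.1 and 14.6 CPM at 0 h, a log2 change of 0.93 (SE 0.08). Set against the si-control response of 3.16, the differences were -2.16 (SE 0.11, edgeR adjusted p = 2.49e-08) and -2.23 (SE 0.12, edgeR adjusted p = 1.22e-09). In si-CBX3 the 0 h level was raised, whereas in si-FOXA1 the 6 h level was low. In si-BRG1 DUSP1 had 96.3 and 83.1 CPM at 6 h against 9.84 and 9.69 CPM at 0 h (3.20, SE 0.09), and the difference of responses was 0.04 with a 95% interval of -0.21 to 0.29.

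The DUSP6 response was larger than that of si-control in si-CBX3 and smaller in si-FOXA1. In si-CBX3 DUSP6 had 1.09 and 1.00 CPM at 6 h against 16.6 and 17.4 CPM at 0 h, a log2 change of -4.02 (SE 0.15, edgeR adjusted p = 1.95e-12), which differed from si-control by -2.47 (SE 0.24, edgeR adjusted p = 7.41e-06). In si-FOXA1 it had 6.40 and 5.09 CPM at 6 h against 7.24 and 7.41 CPM at 0 h, a log2 change of -0.35 (SE 0.12, edgeR adjusted p = 0.0327), which differed from si-control by 1.20 (SE 0.21, edgeR adjusted p = 0.000444). The fall within si-FOXA1 was not called without either 0 h library (-0.37 and -0.34) or without the second 6 h library (-0.20), and it was -0.53 without the first 6 h library; the difference from si-control was called in each case. In si-BRG1 DUSP6 had 0.713 and 0.991 CPM at 6 h against 3.54 and 3.85 CPM at 0 h (-2.09, SE 0.16), a response whose difference from si-control did not pass (-0.54, 95% interval -1.05 to -0.03, edgeR adjusted p = 0.212).

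DUSP2 changed in opposite directions under the same pair of siRNAs. In si-CBX3 it had 2.99 and 2.97 CPM at 6 h against 0.653 and 0.604 CPM at 0 h (2.24, SE 0.24), a response above that of si-control by 1.45 (SE 0.32, edgeR adjusted p = 0.00798). In si-FOXA1 it had 0.749 and 1.20 CPM at 6 h against 1.60 and 1.67 CPM at 0 h (-0.74, SE 0.24), a response below that of si-control by 1.54 on the log2 scale (-1.54, SE 0.31, edgeR adjusted p = 0.00144). The fall within si-FOXA1 was not called without the first 0 h library (-0.78), the second 0 h library (-0.72) or the first 6 h library (-0.46), and stood at -1.13 without the second 6 h library. In si-BRG1 the groups of DUSP2 did not overlap but the change did not pass (0.42, SE 0.21, edgeR adjusted p = 0.131), and without the second 6 h library it passed at 0.61 (edgeR adjusted p = 0.0493).

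DUSP10 and DUSP5 fell under every siRNA. DUSP10 had 3.01 and 3.44 CPM at 6 h against 11.1 and 11.9 CPM at 0 h in si-FOXA1 (-1.83, SE 0.12), 6.08 and 7.65 CPM against 19.3 and 19.1 CPM in si-CBX3 (-1.48, SE 0.11) and 4.28 and 4.20 CPM against 7.49 and 7.51 CPM in si-BRG1 (-0.82, SE 0.12). Its fall was larger than that of si-control in si-FOXA1 (-1.19, SE 0.17, edgeR adjusted p = 6.60e-05) and in si-CBX3 (-0.85, SE 0.16, edgeR adjusted p = 0.00330). DUSP5 had 9.18 and 9.73 CPM at 6 h against 31.1 and 29.1 CPM at 0 h in si-CBX3 (-1.67, SE 0.12), 14.1 and 10.3 CPM against 24.1 and 25.9 CPM in si-BRG1 (-1.04, SE 0.11) and 6.83 and 7.60 CPM against 11.9 and 12.1 CPM in si-FOXA1 (-0.73, SE 0.12). Its fall was larger than that of si-control in si-CBX3 (-1.08, SE 0.16, edgeR adjusted p = 0.000467), and the differences in si-BRG1 (-0.45, 95% interval -0.79 to -0.11) and si-FOXA1 (-0.14, 95% interval -0.49 to 0.21) did not pass. Without the first si-BRG1 library at 6 h, DUSP5 passed in si-BRG1 at -0.70.

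DUSP8 showed no called response in si-control but fell in each knockdown. In the single libraries without siRNA it was also lower at 6 h, at 0.940 RPKM against 1.98 RPKM at 0 h. DUSP8 had 27.1 and 24.3 CPM at 6 h against 42.9 and 41.3 CPM at 0 h in si-CBX3 (-0.71, SE 0.14), 15.5 and 22.6 CPM against 31.3 and 32.2 CPM in si-FOXA1 (-0.74, SE 0.15), and 10.3 and 14.3 CPM against 16.6 and 17.9 CPM in si-BRG1 (-0.48, SE 0.15, edgeR adjusted p = 0.0181). The si-BRG1 fall was not called when the fit held only the groups compared (-0.47, edgeR adjusted p = 0.0814). The difference from si-control passed in si-CBX3 (-0.79, SE 0.21, edgeR adjusted p = 0.0252) and si-FOXA1 (-0.81, SE 0.21, edgeR adjusted p = 0.00798) but not in si-BRG1 (-0.56, SE 0.21, edgeR adjusted p = 0.14). The si-CBX3 difference kept its call without the first si-control library at 0 h alone, and lay at -0.83 to -0.69 with edgeR adjusted p up to 0.114 when another library was left out. The fall within si-BRG1 was not called without the second 0 h library (-0.43) or the first 6 h library (-0.27) and was -0.74 without the second 6 h library; without that library the si-BRG1 difference passed at -0.82, as it did with all libraries and no filter on low counts (-0.53, edgeR adjusted p = 0.0179).

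DUSP4 rose in si-BRG1, with 24.6 and 26.3 CPM at 6 h against 14.6 and 14.9 CPM at 0 h (0.79, SE 0.07), which exceeded the si-control response by 0.50 (SE 0.11, edgeR adjusted p = 0.0140); without the first si-BRG1 library at 0 h this difference was 0.49 and not called (edgeR adjusted p = 0.0846). In si-CBX3 DUSP4 had 38.1 and 36.0 CPM at 6 h against 37.8 and 39.7 CPM at 0 h (-0.07, SE 0.07), and its difference of -0.35 (edgeR adjusted p = 0.0450) was not called when any one of the 8 libraries was left out (-0.38 to -0.25, edgeR adjusted p = 0.0799 to 0.279). In si-FOXA1 DUSP4 had 83.7 and 83.8 CPM at 6 h against 74.4 and 75.6 CPM at 0 h, which did not pass (0.16, SE 0.07, edgeR adjusted p = 0.0843).

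DUSP7 and DUSP16, the least variable members, did not rise in si-FOXA1. DUSP7 had 8.02 and 9.17 CPM at 6 h against 10.3 and 11.0 CPM at 0 h in si-FOXA1 (-0.30, SE 0.11, edgeR adjusted p = 0.0406), a response that differed from si-control by -0.68 (SE 0.16, edgeR adjusted p = 0.00492). The fall itself was not called without the first 0 h library (-0.36), the second 0 h library (-0.26) or the first 6 h library (-0.22). DUSP16 had 46.6 and 43.8 CPM at 6 h against 44.1 and 42.8 CPM at 0 h in si-FOXA1 (0.06, SE 0.08), and its difference of -0.39 (SE 0.11, edgeR adjusted p = 0.0159) was not called without the first si-FOXA1 library at 0 h (-0.37), the first si-control library at 0 h (-0.33) or the second si-control library at 6 h (-0.35). In si-CBX3 DUSP7 (0.48, SE 0.12) and DUSP16 (0.31, SE 0.08) rose, and in si-BRG1 DUSP16 rose (0.47, SE 0.08) while DUSP7 did not pass (0.06, SE 0.12).

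Counted over members, the hormone response gave 3 higher and 4 lower in si-BRG1 (35.7% of all genes called; 18.6% higher, 17.1% lower), 4 higher and 4 lower in si-CBX3 (41.0%; 20.4% higher, 20.5% lower) and 1 higher and 7 lower in si-FOXA1 (38.8%; 19.1% higher, 19.6% lower). DUSP1 was the one member higher in si-FOXA1. DUSP9 fell there, with 6 and 8 fragments at 6 h against 29 and 29 at 0 h (-1.82, SE 0.46, edgeR adjusted p = 0.00432), at 0.107 and 0.133 CPM against 0.419 and 0.441 CPM. Its changes in si-BRG1 (-0.55, SE 0.49) and si-CBX3 (0.92, SE 0.53) did not pass.

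BRG1 peaks lay near 3 of the 10 members after 30 min of R5020 and near none at 0 min. A peak came within 5 kb of the annotated 5′ end of DUSP1, DUSP6 and DUSP10, against 10.3% of all genes tested at 30 min and 1.89% at 0 min. The 30 min list held 6180 peaks and the 0 min list 2288, and both end at a score of about 50, so a peak missing at 0 min may lie under that limit. In hg19 the DUSP1 peak spanned chr5:172197113-172198899, the DUSP6 peak chr12:89744476-89749122 and the DUSP10 peak chr1:221914442-221917031, and each covered the annotated start of its gene. The scores are the authors' own: 100.28 for DUSP1 (rank 1423 in its list), 67.01 for DUSP6 (rank 3371) and 53.18 for DUSP10 (rank 5448). The 3 genes differed in their hormone response in si-control at 6 h, where DUSP1 rose and DUSP6 and DUSP10 fell. In si-BRG1 the difference of response from si-control was 0.04 for DUSP1, -0.54 for DUSP6 (95% interval -1.05 to -0.03) and -0.19 for DUSP10. None of the 3 passed the interaction test, but 9 of the 10 members did not, and only 5.22% of all genes passed. Whether these peaks bear on the responses was not tested. With 1 library per time there is no replicate check, and the map of these peaks shows their extents.

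**Figure D5:**
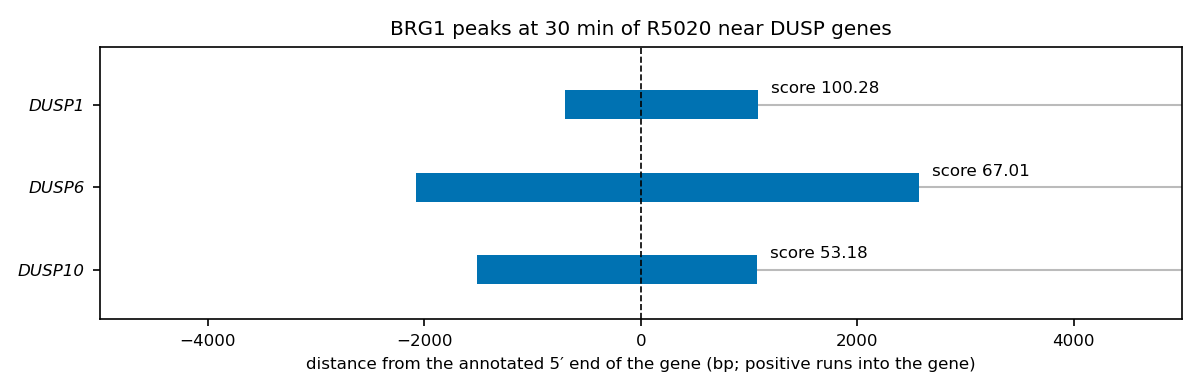
Extent of the BRG1 peaks at 30 min of R5020 near DUSP1, DUSP6 and DUSP10, in bp from the annotated 5′ end of each gene (dashed line; grey lines mark the direction of the gene). The peaks run from -701 to 1085 bp at DUSP1, from -2074 to 2572 bp at DUSP6 and from -1513 to 1076 bp at DUSP10.

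The promoters of these 3 genes are printed because they are the members with a BRG1 peak over their start. They are the 250 bases before the start in RefSeq, build GRCh38.p14, minus strand, at chr5:172771196-172771445 for DUSP1, chr12:89352502-89352751 for DUSP6 and chr1:221742090-221742339 for DUSP10. The build differs from that of the peaks, so the bases were not placed under them. Capitals mark the cAMP response element TGACGTCA and the E-box CACGTG in DUSP1 and the CCAAT box, as CCAAT or its complement ATTGG, in DUSP6 and DUSP10.
DUSP1: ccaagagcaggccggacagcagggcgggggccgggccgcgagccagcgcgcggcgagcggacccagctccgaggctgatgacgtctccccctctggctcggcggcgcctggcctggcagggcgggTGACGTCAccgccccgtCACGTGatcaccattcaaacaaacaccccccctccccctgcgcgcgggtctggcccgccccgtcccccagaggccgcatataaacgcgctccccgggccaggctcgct
DUSP6: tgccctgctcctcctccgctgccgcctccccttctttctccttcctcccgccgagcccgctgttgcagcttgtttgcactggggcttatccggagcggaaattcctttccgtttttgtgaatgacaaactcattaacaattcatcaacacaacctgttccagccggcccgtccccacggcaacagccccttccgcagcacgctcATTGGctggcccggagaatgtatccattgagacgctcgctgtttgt
DUSP10: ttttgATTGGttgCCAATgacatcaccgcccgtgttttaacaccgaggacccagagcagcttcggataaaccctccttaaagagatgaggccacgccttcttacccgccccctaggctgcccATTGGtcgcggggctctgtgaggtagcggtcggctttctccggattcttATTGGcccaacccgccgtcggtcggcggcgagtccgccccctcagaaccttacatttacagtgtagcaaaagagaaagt

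The DUSP1 window held the cAMP response element at -125 and the E-box at -108, counted from the start, and the DUSP10 window held 4 CCAAT boxes, at -245, -237, -128 and -79, against 1 in the DUSP6 window at -46. Both strands of 35116 RefSeq promoter windows were searched, of 250 bases before and 50 after a start: TGACGTCA occurred in 1.65% of them, CACGTG in 6.34% and CCAAT in 32.0%. Of the 8 members with a window there (all but DUSP4 and DUSP5), DUSP8 also held TGACGTCA, with 2 matches, and 1 CCAAT box, and DUSP2 also held CACGTG. A further DUSP10 window in the table held no CCAAT box. The steroid receptor core AGAACA, present in 12.4% of windows, was found in a window of DUSP9 and in none of the other 7 members searched, and the AP-1 site TGANTCA, present in 6.57%, in none of these 8. Such a match is a run of letters and does not show that a factor binds.

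Other genes that ERK activity raises were followed as a list of 18, all measured. Before hormone, 8 were higher (28.1% of all genes were) and 3 lower (26.0%) in si-CBX3, with a median log2 difference of 0.61 against 0.05 over all genes. In si-FOXA1 16 were higher (40.0% of all genes) and 1 lower (33.5%), with a median of 1.47 against 0.11. In si-CBX3 the lowest p-values were those of PHLDA1 (1.97, SE 0.08), EGR1, an immediate-early transcription factor (3.57, SE 0.19), MYC (1.47, SE 0.08) and the cyclin gene CCND1, which was lower (-1.03, SE 0.08). In si-FOXA1 they were those of MYC (2.88, SE 0.08), PHLDA1 (2.07, SE 0.08), the ephrin receptor gene EPHA2 (3.01, SE 0.14) and ERRFI1, an inhibitor of EGF receptors (1.43, SE 0.07). In si-BRG1 3 were higher (15.1% of all genes) and 3 lower (13.4%), with a median of 0.04. In si-control 7 of the 18 were higher at 6 h than at 0 h (19.5% of all genes), led by CCND1 (2.39, SE 0.08) and ERRFI1 (2.02, SE 0.07), and 4 were lower (18.1%), led by the Sprouty gene SPRY1 (-1.48, SE 0.10), an inhibitor of ERK signalling. The hormone response differed from si-control for 8 genes in si-CBX3, all below 0 (4.36% of all genes), for 11 in si-FOXA1, 2 above (13.0%) and 9 below (15.7%), and for 2 in si-BRG1, both below (3.72%). The genes called in si-CBX3 and si-FOXA1 included ERRFI1 (-1.33 in si-CBX3 with an SE of 0.10, and -1.42 in si-FOXA1 with an SE of 0.10) and MYC (-1.19 in si-CBX3 and -1.48 in si-FOXA1).

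The kinases that DUSP enzymes act on were also followed. Of 12 MAP kinase genes, 4 rose (19.5% of all genes did) and 1 fell (18.1%) in si-control, a share called near that of all genes (37.6%). Those that rose included MAPK7 (0.80, SE 0.12), MAPK6 (0.47, SE 0.07) and MAPK8, which encodes a JNK (0.26, SE 0.07). In si-FOXA1 the response differed from si-control for 1 gene of the list, MAPK9 (0.36, SE 0.09), against 28.7% of all genes. At 0 h 5 were higher and 4 lower in si-CBX3 (28.1% and 26.0% of all genes), and 5 higher and 6 lower in si-FOXA1 (40.0% and 33.5%). Of 15 MAP2K, RAS and RAF genes 5 rose and 3 fell with hormone in si-control, and of 9 MAP3K genes 4 rose, led by MAP3K3 (1.45, SE 0.07), and 2 fell, led by MAP3K8 (-1.05, SE 0.18). Of 13 measured atypical DUSP genes, which lack the kinase-binding domain of the members, 4 rose and none fell, against the same 19.5% and 18.1% of all genes as for the kinases. Of 3 listed MAP kinase tyrosine phosphatase genes 2 were measured, and both fell in si-control (18.1% of all genes). Under the knockdowns 0 were called lower in si-BRG1 (17.1% of all genes), 1 in si-CBX3 (20.5%) and 0 in si-FOXA1 (19.6%).

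Across the 8 group means, members did not share one pattern. The pair farthest apart was DUSP2 and DUSP6, with a Pearson r of -0.865 over the 8 means, and the closest was DUSP1 and DUSP16 (0.857). The 8 means include shared cells and hormone times, and r is given as a description. The similar genes below were picked as the highest r of many over only 8 means, so their r are high by selection. Among 9695 genes with a mean log2 CPM of at least 3, the pattern most like that of DUSP1 was that of BSDC1 (r = 0.974), then SLC22A23 (0.974) and CSRNP1 (0.955). For DUSP4 they were ADIRF-AS1 (0.979), ACSL4 (0.974) and NCL (0.970), for DUSP5 NME6 (0.969), MBOAT1 (0.967) and FRAT1 (0.960), for DUSP8 MAP3K11 (0.969), KHSRP (0.966) and CLSTN3 (0.966), and for DUSP16 JADE2 (0.980), TBC1D4 (0.976) and GTF3C6 (0.975).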

How the data were processed

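The files hold fragment counts per gene for 16 siRNA libraries, estimated counts (reads) and RPKM per transcript for 2 libraries without siRNA, and BRG1 peak lists with a score per peak, all as deposited by the authors. Per the file headers, counts were made with featureCounts 1.4.6-p2 on reverse-stranded fragments, with hg19 GENCODE 19 gene models. Trimmomatic and STAR (RNA-seq), and Bowtie 1.0.0 and HOMER (ChIP-seq), are named in the submitters' processing notes. For the RPKM values no tool, and for the peaks no caller settings, were found in the sources used.

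The test was edgeR 4.0.16 in R 4.3.3: filterByExpr, TMM, 1 quasi-likelihood fit over 8 groups and 8 residual degrees of freedom, two-sided tests and Benjamini-Hochberg adjustment over 18806 genes. Genes with an adjusted p below 0.05 are called; the scripts were tested on simulated counts. FPKM is CPM per kilobase of exon. RPKM was summed per gene and compared as log2(RPKM + 1), with no test. Peaks within 5 kb of the 5′ end of a gene were assigned to it.

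Members, gene lists and the rule for named genes (the members, the siRNA targets and up to 4 genes per list by lowest p) were chosen with earlier results of these data known. One gene that the rule named is not reported here. Reads that DUSP5 or DUSP8 shares with a pseudogene could be miscounted; DUSP8P5 had 24 to 171 fragments per library and DUSP5P1 had 1 to 24. Alternatives were DESeq2 1.42.0, its size factors in edgeR, no filter, only the groups compared, a replicate block and leaving out each library, after which the lone library of a group is assumed to vary like the others.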

Additional observations from a re-analysis of the deposited data

Results flagged for a closer look

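By the interaction term of the edgeR fit, the hormone response of 15 pairs of DUSP gene and knockdown differed from that of si-control, out of 30 tested. The shares called among all genes were 8.99% in si-CBX3, 28.7% in si-FOXA1 and 5.22% in si-BRG1. All of these comparisons share the si-control response. As given above, the calls of DUSP4 and DUSP8 in si-CBX3, DUSP16 in si-FOXA1 and DUSP4 in si-BRG1 depended on single libraries. In si-CBX3 the differences were -2.16 for DUSP1, 1.45 for DUSP2, -0.35 for DUSP4, -1.08 for DUSP5, -2.47 for DUSP6, -0.79 for DUSP8 and -0.85 for DUSP10, on the log2 scale. In si-FOXA1 they were -2.23 for DUSP1, -1.54 for DUSP2, 1.20 for DUSP6, -0.68 for DUSP7, -0.81 for DUSP8, -1.19 for DUSP10 and -0.39 for DUSP16. In si-BRG1 the difference was 0.50 for DUSP4. DUSP2 and DUSP6 are the genes whose differences have opposite signs in si-CBX3 and si-FOXA1. With 2 libraries per group no single library could be tested as standing apart. For levels of si-CBX3 or si-FOXA1 against si-control, a difference that goes with the counting setting cannot be told apart from the siRNA. The files of si-BRG1 and si-control share that setting, and each response was taken within the same setting.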

How the results depend on the processing

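Of the 130 tests of members, 122 kept their direction and side of the threshold with DESeq2, 124 with its size factors, 120 without the filter, 127 with the replicate block, 117 of 126 with only the groups compared, and 548 of 640 with 1 library left out. The replicate numbers are only numbers in the labels, and same-numbered libraries deviated together weakly (r = -0.216 to 0.323); under the replicate block DUSP2 in si-BRG1 at 0 h (-0.59, edgeR adjusted p = 0.0502), DUSP10 in si-BRG1 at 6 h (-0.33, 0.0522) and the DUSP4 difference in si-CBX3 (-0.35, 0.053) were no longer called. With only the groups compared, all genes called were 4342 for the response in si-BRG1, 3814 for si-BRG1 at 6 h and 67 for the difference in si-BRG1, where DESeq2 gave 1549; the last 2 of these comparisons called 1 and 0 members, and 2 members each without the filter. The upper part of the 30 min list by score held a peak near 1 member, DUSP1, and near 6.23% of all genes. Without siRNA, 5 members passed 2-fold with a pseudocount of 0.1 (2645 of 17398 genes) and 4 by estimated reads (1206 genes). DESeq2 did not call the si-FOXA1 responses of DUSP6 and DUSP7, DUSP5 in si-BRG1 at 0 h, or DUSP9 and DUSP16 in si-CBX3 at 0 h, and called DUSP8 in si-BRG1 at 6 h. DUSP7 in si-CBX3 at 0 h turned to -0.022 with DESeq2 or its size factors, to -0.019 without the filter and to -0.0051 with only the groups compared, and DUSP16 in si-BRG1 at 6 h to -0.0082 with those size factors and -0.0084 with DESeq2; neither was called.

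With 1 library left out, members called ranged from 5 to 7 for the responses in si-FOXA1 and in si-control, 0 to 2 for si-BRG1 at 0 h, 2 to 4 for si-BRG1 at 6 h and 0 to 2 for the difference in si-BRG1. All genes called numbered at most 6671 for the response in si-FOXA1, against 7295 with every library in, and ranged from 4952 to 5922 for that in si-control, 4795 to 8050 for si-BRG1 at 6 h, 3246 to 4665 for si-BRG1 at 0 h, 147 to 2840 for the difference in si-BRG1 and 825 to 2076 for that in si-CBX3. Values that changed sign, none of them called with every library in, were the si-BRG1 differences of DUSP1 (-0.073 to 0.15) and DUSP16 (-0.11 to 0.15), the si-BRG1 response of DUSP7 (-0.13 to 0.21), DUSP16 in si-BRG1 (-0.053 to 0.019 at 0 h, -0.11 to 0.15 at 6 h), DUSP7 in si-CBX3 at 0 h (-0.058 to 0.10), and at 6 h DUSP5 (-0.38 to 0.084) and DUSP9 (-0.43 to 0.55) in si-BRG1, DUSP6 (-0.12 to 0.059) and DUSP9 (-0.067 to 1.14) in si-CBX3 and DUSP8 (-0.049 to 0.49) and DUSP9 (-0.68 to 0.30) in si-FOXA1. Of these, DUSP5 at -0.38 and DUSP8 at 0.49 were called. The cause of these changes was not tested. DUSP9, at 4 to 29 fragments, is limited by depth.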
